A study of Mus musculus with 97 samples.

Results

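The 139 transcripts described here were weakly detected in mouse cortex: their probes gave signals only slightly above the background of the assay. They were selected on their cortex signal, as those of the 19962 genes measured whose ratio to the negative probe, a set of probes with no target in the mouse genome, had a median from 1.5 to 3 over the 49 cortex libraries, less 16 of the 155 genes in that window that were set aside by their symbols. The excluded symbols were mostly ribosomal proteins and genes of glycolysis and respiration. One of those left out, Rps6kb2, encodes a kinase that acts on ribosomal protein S6 and not a ribosomal protein. A further 59 genes lay above the window and 19748 below it. Cortex levels chose these transcripts, so those levels are given as a description and were not tested. The groups were compared within cortex as well, and those tests use the same libraries as the choice. The hippocampus libraries were not used in it.

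In the assay, a probe for each gene is hybridised to RNA in a tissue section, and ultraviolet light releases the probe's tag from a chosen region for sequencing. Some of the signal comes from probes that stick without a target, and a gene is called detected only when it rises above that level. Neurons hold abundant messages for vesicle release, the cytoskeleton, chaperones and mitochondria, and astrocytes supply them with glutamine and clear their glutamate. The probe sequences of the panel were not used here.

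The study asked how the human APOE allele shapes the response of older mice to combination chemotherapy. All animals of these groups carried a knocked-in human APOE allele, either APOE3 or APOE4. DD was doxorubicin at 3 mg/kg with docetaxel at 10 mg/kg per week, and DC was doxorubicin at 3 mg/kg with cyclophosphamide at 40 mg/kg per week. Injections were into the peritoneum, 2 times a week for 2 weeks, and vehicle mice received 50% DMSO in saline buffer. Regions were captured from cortex and hippocampus in 8 µm sections. Genotype, treatment and region gave 12 groups of 8 libraries, with 9 in the cortex of APOE3 mice given DD. Each library was 1 captured region. The labels give neither the animals' age in figures nor the animal behind each region, so p-values over regions are too small wherever regions share an animal. All APOE4 libraries came from 1 collection plate and all APOE3 libraries from another, so genotype and plate cannot be told apart.

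Libraries differed widely in depth, with totals from 21568 to 1850582 counts (median 44846). The negative probe lay between 1.02 and 93.1 (median 1.84), and it reached 5 or more in 13 libraries, all of them APOE4. The lowest value in 94 of 97 libraries was 1, so a gene that was not seen appears to be listed at 1. In cortex 1 of 5 cortex markers and 2 of 6 excitatory neuron markers reached a ratio of 1.5, the highest being Slc17a7 at 1.85. None of 5 hippocampus markers did so in hippocampus, where the highest was Ociad2 at 1.10. The markers of inhibitory neurons, oligodendrocytes, microglia and vessels had median ratios of 0.903 to 0.938 in cortex. Fewer cells of a type and less RNA per cell cannot be told apart in captured regions.

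Within the window the transcripts clustered at its low end. Their cortex medians ran from 1.504 to 2.89 with a median of 1.78; 108 lay from 1.5 to 2 and 31 from 2 to 3. Marcksl1 and Rrm2 stood just inside the lower bound at 1.504 and Olfr761 at 1.51, while Gabbr2, Cpt1a and 2810459M11Rik fell just outside it at 1.49. At the upper bound, Hmx1 and Jpt1 at 2.83 and the histone gene H4c11 at 2.89 lay inside, and Alyref at 3.08 lay outside. These steps are small against the resolution of the counts. In the APOE3 cortex libraries a single count corresponded to a median ratio of 0.772 and 2 counts to 1.54, so the lower bound falls between 1 and 2 counts; in APOE4 cortex the same steps were 0.359 and 0.717.

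The low counts showed in the share of values at the floor. In cortex 21.1% of the values of these transcripts were listed at 1, against 44.7% for all genes. The stimulatory G protein subunit Gnas and the gasdermin gene Gsdma were among those least often at the floor, at 1 in 5 of 49 cortex libraries. Chchd1, a protein of the mitochondrial ribosome, Dok7, an adaptor of the neuromuscular junction, and Rrm2, a ribonucleotide reductase subunit, were at 1 in 16. No transcript had most of its cortex counts in a single library. In APOE3 and APOE4 cortex taken separately, 83 of the 139 stayed in the window in both. A further 44 fell below 1.5 in APOE3, and 7 did so in APOE4.

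Sorted by known roles, the largest class was neuronal signalling, membrane traffic and cell shape, with 31 transcripts. It held the release regulator Cplx1 at a cortex median of 2.43, Gnas at 2.35 and the synuclein Sncb at 2.11. It also held the microtubule destabiliser Stmn1 at 2.52, the growth cone protein Basp1 at 1.79, and Ppp1r9b, the spine scaffold spinophilin, at 2.75. Mitochondria and metabolism had 19 transcripts, among them the glycine cleavage protein Gcsh at 2.75 and the phosphate carrier Slc25a3 at 1.85. Chromatin, transcription, RNA and cell division had 17, led by H4c11. Protein folding, ubiquitin and autophagy had 12, including the cytosolic chaperones Hsp90ab1 at 2.05 and Hsp90aa1 at 1.83. The classes were drawn up after the transcripts were known and carry no test.

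A further 22 of the 139 are best known from other tissues. They included Nppa, the atrial natriuretic peptide, at 2.22, and Prm1, the protamine that packs sperm DNA, at 1.76. They also included the olfactory receptors Olfr1507, Olfr509, Olfr1425 and Olfr761 at 1.51 to 1.61. Their cortex median of 1.70 lay beside 1.85 for the neuronal class, and on average 23.1% of their cortex values were at 1 against 18.8%. The other 38 transcripts were placed in no class.

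Against 10 lists of brain and stress genes, 21 of the 139 were listed and 118 were not. The synapse list gave 8 of its 90 genes, chaperones 4 of 69, and the cytoskeleton, astrocyte and energy lists 3 each, of 45, 25 and 58. The astrocyte genes were Ndrg2 at 2.18, the glutamine synthetase Glul at 1.73 and Cpe, which neurons also express, at 1.61. None came from the lists of oligodendrocytes (25 genes), microglia and immune cells (38), vessels, meninges and blood (28) or DNA damage and p53 (36). Over all genes the share was 139 of 19962, and at that share lists this short would be likely to hold none. These counts are a description and were not tested.

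Promoters of the transcripts best known from other tissues held few CpG dinucleotides, and those of the other classes held more. RefSeq promoters (GRCm38.p6) were matched for 115 of the 139, each a window from 250 bases before to 50 after the first listed start. The median number of CpG dinucleotides was 18, against 15 over the 15743 promoters of all genes, and 71.3% against 61.9% held 10 or more. By class the median was 22 for neuronal, 24 for mitochondrial and 31 for chromatin transcripts, but 3.5 for the genes best known from other tissues, of which 18.8% held 10 or more. A GC box, searched as GGGCGG on both strands, was in 58.3% of the promoters against 50.2% of all. The CCAAT box, searched as CCAAT on both strands, was in 39.1% against 38.2%, and the TATA box, searched as TATAAA on both strands, in 10.4% against 12.2%. Matches to different motifs can share letters, and a match is a description of the sequence only.

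The 250 bases before the start are shown for 3 transcripts whose tests are given further on and for Prm1, as an example of the CpG-poor class, with any match to those motifs in capitals. Hikeshi lies at chr7:89941205-89941454 (minus strand), Chchd1 at chr14:20702777-20703026 (plus), H2bc11 at chr13:22042948-22043197 (plus) and Prm1 at chr16:10796824-10797073 (minus). They hold 9, 28, 9 and 0 CpG, and among them H2bc11, a histone H2B gene, has 5 CCAAT matches.
Hikeshi: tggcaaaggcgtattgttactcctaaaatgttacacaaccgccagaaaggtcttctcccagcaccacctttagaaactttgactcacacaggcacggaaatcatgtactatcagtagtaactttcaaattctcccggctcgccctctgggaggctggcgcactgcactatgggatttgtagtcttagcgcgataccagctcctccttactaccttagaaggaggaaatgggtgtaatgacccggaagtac
Chchd1: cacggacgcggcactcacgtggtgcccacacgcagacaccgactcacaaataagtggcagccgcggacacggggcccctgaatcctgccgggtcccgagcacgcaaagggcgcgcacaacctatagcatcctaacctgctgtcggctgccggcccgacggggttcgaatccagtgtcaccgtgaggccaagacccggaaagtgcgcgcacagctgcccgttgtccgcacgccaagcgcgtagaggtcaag
H2bc11: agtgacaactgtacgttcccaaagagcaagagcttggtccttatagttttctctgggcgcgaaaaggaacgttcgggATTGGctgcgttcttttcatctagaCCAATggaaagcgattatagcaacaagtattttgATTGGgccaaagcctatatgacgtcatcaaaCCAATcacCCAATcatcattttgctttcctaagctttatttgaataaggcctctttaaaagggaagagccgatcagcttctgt
Prm1: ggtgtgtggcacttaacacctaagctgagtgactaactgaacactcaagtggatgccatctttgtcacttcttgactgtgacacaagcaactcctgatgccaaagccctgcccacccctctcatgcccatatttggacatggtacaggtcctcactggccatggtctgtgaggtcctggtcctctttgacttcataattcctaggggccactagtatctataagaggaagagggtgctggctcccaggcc

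**Figure D1:**
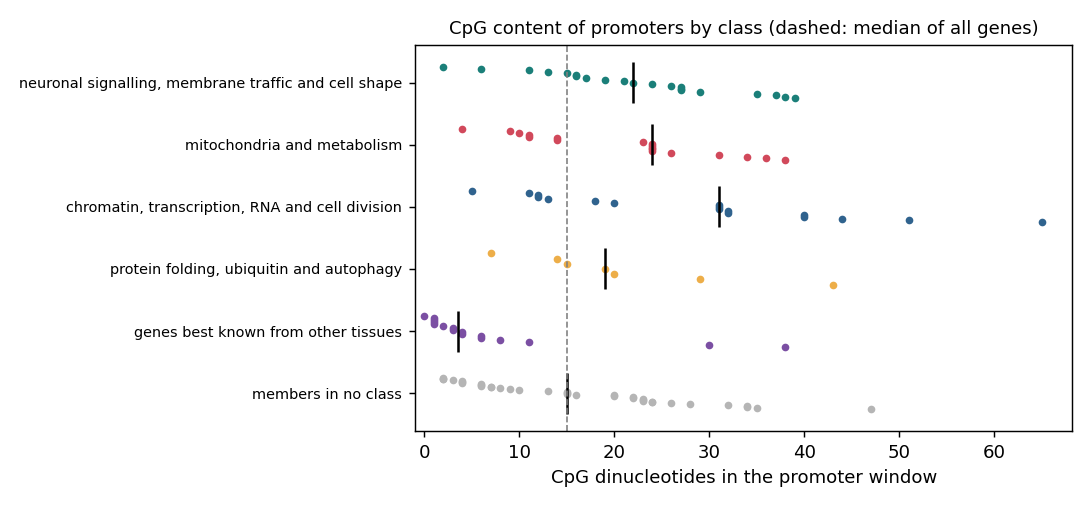
CpG dinucleotides in the RefSeq promoter window (x axis) of the transcripts with a promoter, 1 point each, by class (y axis); black bars are class medians and the dashed line is the median of all genes, 15. Genes best known from other tissues sit mostly at the left, with a median of 3.5.

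Across the captured regions, the median over the transcripts lay above the negative probe in some libraries and below it in others. In APOE3 cortex the median ratio over the 139 was 0.876 to 2.32 after vehicle (median 0.931), 0.790 to 3.02 after DD (median 2.07) and 0.936 to 2.36 after DC (median 1.58). In APOE4 cortex the group medians were 1.95, 1.89 and 2.05. APOE3 groups were split within themselves: 6 of 8 vehicle, 4 of 9 DD and 2 of 8 DC cortex libraries had a median below 1, and no APOE4 cortex library did. These 12 libraries had total counts of 22567 to 29141 and 70 to 99 of the 139 transcripts at 1. With most at 1, the median is the floor value over the negative probe, and it does not place the transcripts at background. In APOE3 vehicle cortex a median of 44.6% of the 139 lay above the negative probe, against 13.8% of all genes, given as a description. The other 37 cortex libraries had totals of 30579 to 312655 and 0 to 43 at 1. In hippocampus the group medians after vehicle, DD and DC were 0.884, 1.01 and 0.946 in APOE3 and 1.47, 1.52 and 1.16 in APOE4. The relation to depth did not run one way. The 3 deepest cortex libraries, at 312655, 214512 and 182651 counts, had medians of 1.22, 1.31 and 1.32. The next deepest in cortex, at 169239, 156516 and 133470 counts, had 2.05, 1.85 and 1.91. The deepest hippocampus library, at 1850582 counts, had 1.05. The part of depth in any difference between groups was not tested.

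**Figure D2:**
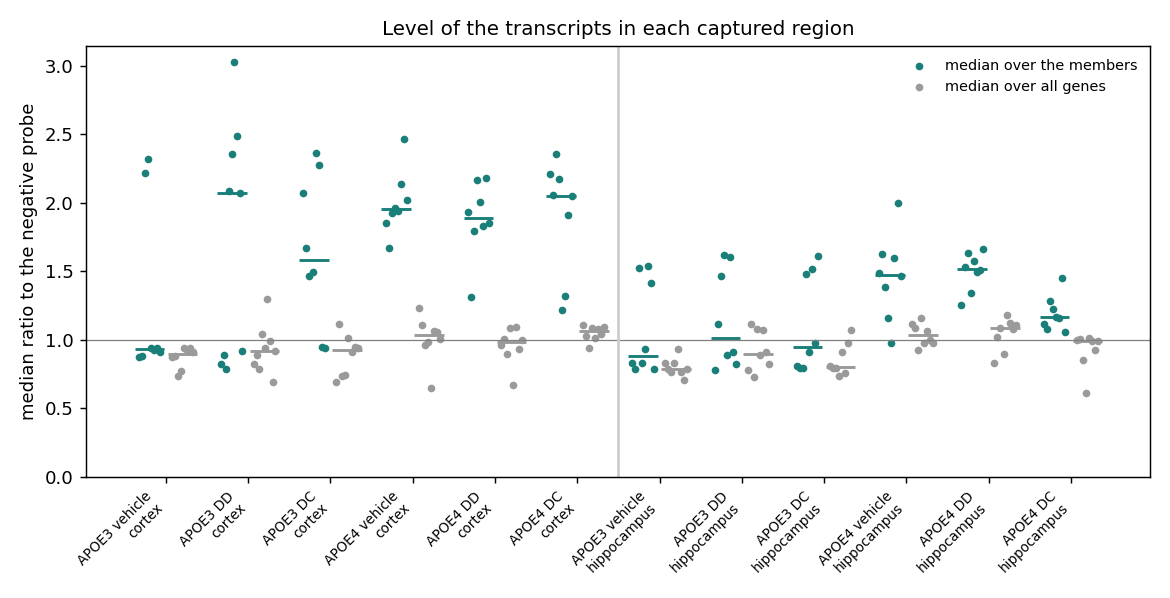
Median ratio to the negative probe (y axis, linear) in each library, by group (x axis), over the 139 transcripts (green) and over all genes (grey); bars are group medians and the line at 1 is the negative probe. APOE3 cortex groups hold libraries near 1 and libraries above 2, and hippocampus values lie lower than cortex in most groups.

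In hippocampus, where the same probes were read in libraries that had no part in the choice, the transcripts had a median ratio of 1.12 and ran from 0.834 to 3.04. Of the 139, 31 were below 1, 67 from 1 to 1.5, 40 from 1.5 to 3 and 1 above 3. Over all genes 83.5% were below 1 and 0.496% lay from 1.5 to 3. With limma on the log2 ratio over 48 libraries, 72 of 139 (51.8%) were above the negative probe after Benjamini-Hochberg adjustment over all genes and none was below it. The background was 3.03% of all genes above and 9.61% below. Captured regions of 1 animal are not independent, so these p-values are too small. With values of 1 taken as 0 and a pseudocount of 0.5, 17 of the 139 were above the negative probe and 60 below it, with 18886 of all genes below.

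The highest in hippocampus was Tbcel, a tubulin chaperone-like protein, with a ratio of 0.776 to 7.51 and a median of 3.04 (log2 1.35, SE 0.12, limma adjusted p = 9.03e-25). It lay above the negative probe in 44 of 48 libraries. Parm1, a mucin-like membrane protein, ran from 0.909 to 6.06 with a median of 2.98, and was above it in 45 libraries. Ppp1r9b at 2.68, Gcsh at 2.58 and 9130019O22Rik at 2.37 followed. Of the mitochondrial class, 9 of 19 were above the negative probe; among them were the malate and oxoglutarate carrier Slc25a11 at 2.18 and the complex III assembly factor Uqcc3 at 2.17. Chromatin and RNA genes gave 12 of 17, with the helicase subunit Ruvbl2 at 2.15.

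The neuronal class gave 13 of 31 and the genes best known from other tissues 13 of 22. In the latter, Pate14, a secreted protein of the male reproductive tract, had a hippocampus median of 1.84, Rtp1, which carries odorant receptors to the cell surface, 1.82, and the transcription factor Tfap2b 1.55. Some transcripts had hippocampus medians near or below the negative probe: Stmn1 had a median of 1.01, Hsp90aa1 0.924, the small nuclear ribonucleoprotein Snrpn 0.874 and Basp1 0.860. Their log2 ratios in the limma fit were 0.15, -0.03, 0.09 and 0.007, and none of them was called below the negative probe. A median below 1 can be the floor value over the negative probe, and it does not place a transcript at background. The autophagy protein Atg12 stood at 0.868, and the lowest were Yy2, a zinc finger protein, and Gm52481, both at 0.834. The same probes were read in both regions, and the part of each probe's own background in these levels was not tested.

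Set side by side with no test, since cortex chose them, 130 of the 139 had a lower median in hippocampus than in cortex and 9 a higher one. Lower medians were found for 67.8% of all genes and for 72.9% of the genes above the window. In the APOE3 libraries alone 84.9% of the 139 were lower against 83.8% of all genes, and in APOE4 90.6% against 54.8%. Slc25a11 (1.64 in cortex), Uqcc3 (1.78), Parm1 (2.18) and Tbcel (2.47) were among the 9.

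**Figure D3:**
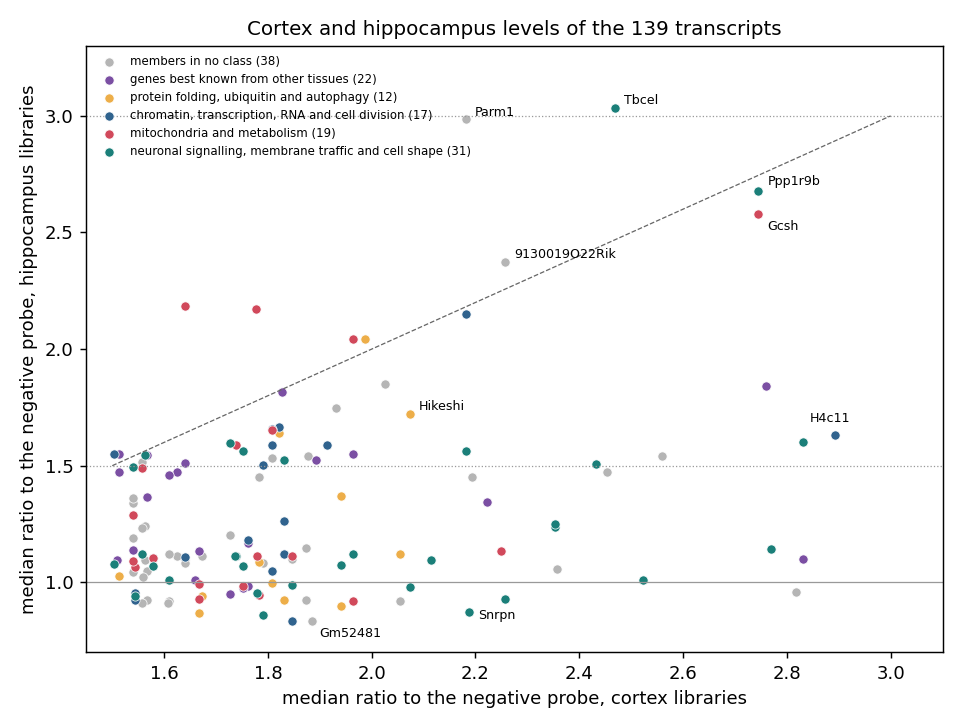
Median ratio to the negative probe in cortex (x axis) and hippocampus (y axis) of the 139 transcripts, coloured by class; the dashed line marks equal levels, the solid line the negative probe and the dotted lines 1.5 and 3. The cortex axis is bounded by the choice itself, and 130 of the points lie below the dashed line.

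None of the 139 transcripts passed the test after chemotherapy in cortex. All genes were fitted per region with edgeR's quasi-likelihood test and no filter on low counts, because such a filter tests 0 of the 139. The test over captured regions called 0 of the 139 after DD and DC in APOE3, where 0.0301% of all genes were called in each, and 0 after DD and DC in APOE4, where the background was 0.0651% and 0.0802%. At an unadjusted p under 0.05 there were 10, 9, 11 and 18, or 7.19%, 6.47%, 7.91% and 12.9%, against 1.17%, 1.11%, 5.13% and 6.91% of all genes. DESeq2 called 0 in each. The median log2 change over the 139 was 0.41 and 0.34 in APOE3, against 0.20 over all genes in each, and -0.21 and -0.30 in APOE4, against -0.10 and -0.14. With upper-quartile scaling the medians in APOE3 turned to -0.04 and -0.28, against -0.25 and -0.44 over all genes, and those in APOE4 were -0.12 and -0.13, against 0.03 and 0.08. Without the libraries with a negative probe of 5 or more, the APOE4 medians over the 139 were -0.05 after DD and 0.05 after DC.

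The 2 smallest unadjusted p in each direction belonged to 4 genes. Cenph, a centromere protein, had a ratio of 0.690 to 27.8 with a median of 0.915 after DD in APOE3 cortex and of 0.913 to 3.69 with a median of 1.24 after vehicle (log2 change 1.62, SE 0.49, edgeR adjusted p = 0.983). The groups overlapped, and without the library at 27.8 the log2 change was -0.11. Oxct1, which lets cells use ketone bodies, had a median of 1.63 after DC and 0.899 after vehicle in APOE3 (log2 1.36, edgeR adjusted p = 0.993). In APOE4 cortex Camk2n1, an inhibitor of the synaptic kinase CaMKII, had a median of 1.54 after DD and 2.36 after vehicle (log2 -1.27, edgeR adjusted p = 0.324). The membrane-binding protein Anxa2 had medians of 1.27 and 2.24 (log2 -1.10, edgeR adjusted p = 0.363). All of these groups overlapped.

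Hikeshi ratios in vehicle cortex lay higher in APOE4 than in APOE3. The gene encodes the carrier that brings Hsp70 chaperones into the nucleus during heat stress. Its ratio was 3.78 to 16.4 in the 8 APOE4 libraries (median 4.43) and 0.738 to 1.83 in the 8 APOE3 libraries (median 0.904). It entered the window through APOE4: its median in each APOE3 cortex group was below 1.5 and in each APOE4 cortex group above 3. The values that chose it are thus those compared, and the fit given next is a description and not independent evidence of a difference. The groups did not overlap, and 7 of the 8 APOE3 libraries were at the lowest value of 1. The counts were 7 to 46 in APOE4 and 1 or 2 in APOE3. The log2 difference was 3.06 (SE 0.55, edgeR adjusted p = 0.000627), the only call among the 139 in the genotype comparisons of cortex, and none was made among the 83 in the window in both genotypes. In this contrast 0.0301% of all genes were called, 0.015% higher in APOE4. The fitted size rests on values at the floor and ran from 2.27 to 5.11 over the alternatives, with adjusted p from 5.70e-07 to 0.116. DESeq2, with a log2 difference of 2.67, and sums over neighbouring wells, with 2.76, did not call it, and genotype and plate cannot be told apart.

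The same direction stood in the treated cortex groups without passing the test. All 49 cortex libraries took part in the choice. The cortex values of Hikeshi given here, under either scaling, are thus a description and not independent evidence. Hikeshi ratios had medians of 4.21 and 3.43 after DD and DC in APOE4, and of 0.915 and 1.25 in APOE3 (log2 differences 1.70 and 1.48, edgeR adjusted p = 0.372 and 0.997). After DD the APOE4 ratios began at 2.21 and the APOE3 ratios ended at 3.02, so those groups overlapped. In hippocampus the medians were 2.81, 4.74 and 1.17 in APOE4 after vehicle, DD and DC, and 1.17, 1.72 and 1.03 in APOE3. APOE4 was 2.23-fold, 2.83-fold and 1.19-fold higher in the fit, and none passed (edgeR adjusted p = 0.993, 0.996 and 0.998). Depth also differed between the vehicle cortex groups: the negative probe had a median of 1.11 in APOE3 and 2.42 in APOE4, and the median log2 difference was 0.33 over all genes and 0.55 over the 139. Upper-quartile scaling moved these to -0.40 and -0.20 and kept the call of Hikeshi (log2 2.27, edgeR adjusted p = 0.0356). Of the 139, 0 were called between the genotypes in DD and DC cortex, where 0.0601% and 0.0351% of all genes were, and DESeq2 called 0 in each. At an unadjusted p under 0.05 there were 32, 8 and 11 after vehicle, DD and DC, or 23.0%, 5.76% and 7.91%, against 3.59%, 2.58% and 2.77% of all genes. Over the alternatives the vehicle count ran from 6 (DESeq2, 4.32% against 0.596%) to 49 (values of 1 taken as 0, 35.3% against 50.2%). Upper-quartile scaling gave 10 (7.19% against 5.31%). Of the 139, 44 were below 1.5 in APOE3 cortex and 7 in APOE4 cortex, so these counts are a description.

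**Figure D4:**
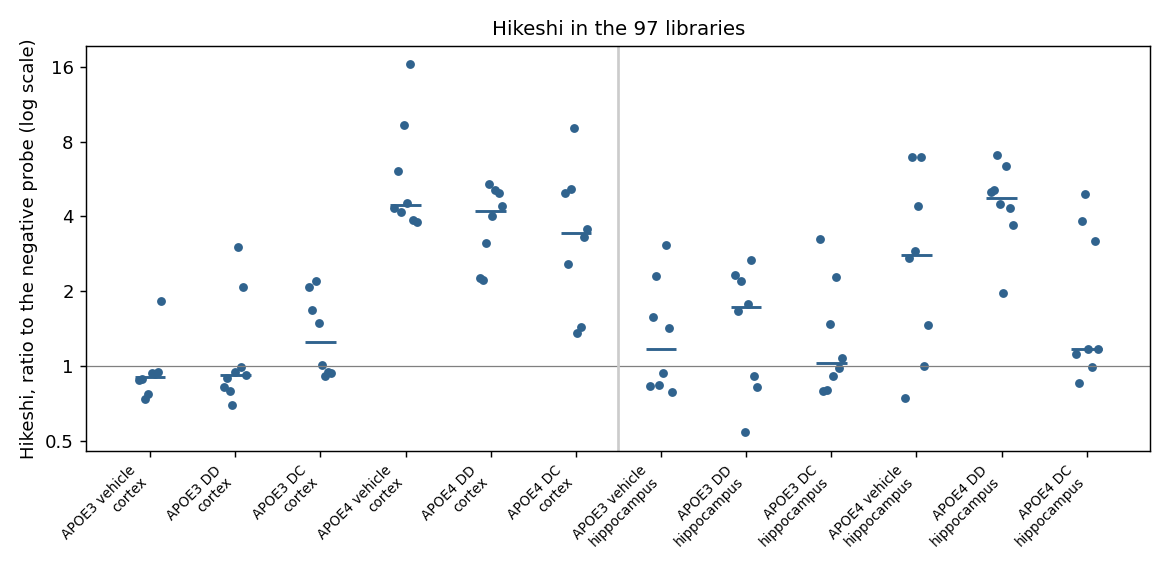
Hikeshi ratio to the negative probe (y axis, log scale) in each library, by group (x axis), with bars at group medians. APOE4 vehicle cortex lies at 3.78 to 16.4 and APOE3 vehicle cortex at 0.738 to 1.83.

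In hippocampus, 7 of the 139 (5.04%) fell after DC in APOE4 mice. Of all genes 0.917% fell and 0.932% changed in either direction, and the median log2 change was -0.43 over the 139 and -0.11 over all genes. The background of the DC libraries was higher as well: 6 of these 8 had a negative probe of 7.57 or more, against a highest value of 4.10 after vehicle. When the 7 hippocampus libraries with a negative probe of 5 or more were left out, 2 DC libraries remained and 0 of the 139 were called (edgeR). The log2 changes were then -1.98 for Chchd1, -1.83 for 1520401A03Rik, -1.65 for Smim22 and -0.78 for Rusc2, still below 0, and 0.11 to 0.32 for the other 3. Over all libraries, DESeq2 gave an adjusted p for 83 of the 139 and for 999 of all genes, and called 6 and 59 of them lower. It did not call H2bc11, Rprd1b or Smim22 (DESeq2 adjusted p = 0.0603, 0.112 and 0.158).

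Slc25a11, which exchanges malate and oxoglutarate across the inner mitochondrial membrane, had the smallest adjusted p. Its ratios after vehicle were 1.95, 2.32, 2.60, 2.66, 2.71, 2.77, 2.93 and 3.00. After DC they were 0.413, 0.462, 0.541, 0.667, 0.702, 1.72, 2.99 and 3.06. All 6 DC libraries of high background lay below every vehicle library, and the 2 of low background lay at the top of the vehicle range. Over all 16 libraries the log2 change was -1.93 (SE 0.28, 3.80-fold lower, edgeR adjusted p = 6.92e-07). Without the libraries of high background it was 0.14 (SE 0.58, edgeR adjusted p = 0.990), and over all alternatives the adjusted p ran from 1.36e-06 to 0.990.

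For H2bc11 the 2 DC libraries of low background, at 2.45 and 2.56, also lay among the vehicle libraries. It had a vehicle median of 2.47 and a DC median of 1.05 (log2 -1.12, SE 0.25, edgeR adjusted p = 0.00354), and the change was 0.11 without the libraries of high background. Rprd1b, which binds the tail of RNA polymerase II, had medians of 2.03 and 0.846 (log2 -1.20, edgeR adjusted p = 0.00544), and 0.32 without them. Its 2 DC libraries of low background were far apart, at 0.853 and 4.90, so the value of 0.32 rests on the higher one. H2bc11 belongs to a family of near-identical histone genes, so its level is uncertain. Both genes overlapped between groups, and each lost its call when 1 library was left out: H2bc11 without vehicle library 3 (edgeR adjusted p = 0.0512), Rprd1b without DC library 8 (0.0577, edgeR).

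Chchd1 had a ratio of 0.998 to 11.99 after vehicle (median 1.73) and 0.612 to 1.32 after DC (median 1.20). The log2 change was -1.37 (SE 0.27, edgeR adjusted p = 0.000548), but it was -0.57 (edgeR adjusted p = 0.671) without vehicle library 3, which held the value of 11.99. The other calls were 1520401A03Rik (log2 -1.14, edgeR adjusted p = 0.00981), the small membrane protein Smim22 (-1.24, 0.0128) and Rusc2, a protein of vesicle transport (-1.19, 0.0234). Their groups overlapped. Leaving out 1 library ended the call of 1520401A03Rik for 3 libraries, vehicle 1 and 7 and DC 8 (edgeR adjusted p up to 0.270), and of Smim22 for 4, vehicle 1, 6 and 8 and DC 8 (up to 0.184). The call of Rusc2 ended for 7, vehicle 3 and 8 and DC 1, 2, 5, 6 and 8 (edgeR adjusted p up to 0.164). Over single libraries left out, 3 to 17 of the 139 were called in the treatment contrasts of hippocampus. Calls over all genes were not kept for those fits, so the range has no background beside it.

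**Figure D5:**
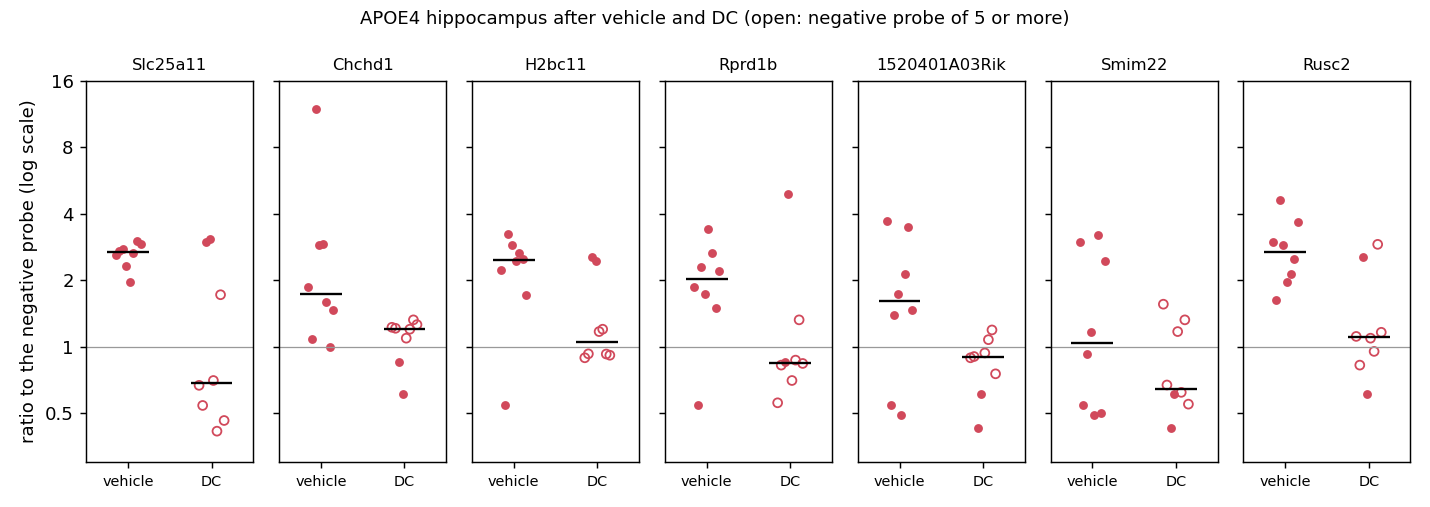
Ratio to the negative probe (y axis, log scale) in the APOE4 hippocampus libraries after vehicle and DC for the 7 genes called lower; open circles are libraries with a negative probe of 5 or more, bars are medians and the line at 1 is the negative probe. For Slc25a11 the 2 filled DC points lie at 2.99 and 3.06, beside the vehicle points.

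Most of the 139 had a negative log2 change that did not pass. After DC in APOE4 hippocampus 123 of the 139 had a log2 change below 0, against 62.0% of all genes, and 49 (35.3%) had an unadjusted p under 0.05 against 8.65% of all genes. Without the libraries of high background, 73 of the 139 were below 0, against 56.0% of all genes. In that fit 6 (4.32%) had an unadjusted p under 0.05 against 2.30% of all genes, and the median was -0.03 beside -0.08. With values of 1 taken as 0, 83 of the 139 were above 0 and 56 below it, against 14.3% of all genes below. The median there was 0.09 beside 0.48 over all genes, and 2 (1.44%) had an unadjusted p under 0.05 against 7.94%. Over all 16 libraries the median log2 change was -0.43 for the neuronal, -0.47 for the mitochondrial, -0.55 for the chromatin, -0.54 for the folding and -0.28 for the other-tissue class. With upper-quartile scaling the median of all genes moved from -0.11 to 0.31 and that of the 139 to -0.05. In that setting 1 of the 139 was called, and the calls over all genes became 41 higher and 77 lower in place of 3 and 183. An unadjusted p under 0.05 was then found for 16 (11.5%) of the 139, against 16.8% of all genes.

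The other hippocampus treatment contrasts called 0 of the 139 (edgeR). After DD in APOE4 0.341% of all genes were called, after DC in APOE3 0.00501%, and after DD in APOE3 0%. Among the 139, 5, 3 and 6 had an unadjusted p under 0.05, or 3.60%, 2.16% and 4.32%, against 4.06%, 0.371% and 0.346% of all genes. DESeq2 called 0 in each.

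Between the genotypes in hippocampus, 1 of the 139 passed: Slc23a2, the transporter that brings vitamin C into neurons, after DC. Its ratios in APOE4 DC were 0.541 to 4.90 (median 0.706) and in APOE3 DC 0.797 to 5.91 (median 2.58), and the groups overlapped. The log2 difference was -1.75 (SE 0.36, 3.35-fold lower in APOE4, edgeR adjusted p = 0.0267), where 0.02% of all genes were called and 0.015% were lower. It was 0.012 without the libraries of high background, and the call held in 36 of 48 fits that each left out 1 library. The 12 libraries that ended it were APOE4 DC 1, 2, 5, 6 and 8, APOE3 DC 2, 5, 6 and 8, APOE3 vehicle 1 and 4 and APOE3 DD 8 (edgeR adjusted p up to 1.00). In the vehicle and DD groups 0 were called, against 0.16% and 0% of all genes, with 5 and 13 at an unadjusted p under 0.05. These were 3.60% and 9.35% of the 139, against 1.41% and 2.03% of all genes. DESeq2 called 0 in each hippocampus genotype contrast.

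No transcript passed the test of a different response to treatment in APOE3 and APOE4. The interaction tests called 0 of the 139 and 0% of all genes in each of the 4 contrasts (edgeR), and DESeq2 also called 0. At an unadjusted p under 0.05 there were 23 for DD and 27 for DC in cortex, or 16.5% and 19.4% against 3.45% and 3.74% of all genes. In hippocampus there were 7 and 11, or 5.04% and 7.91% against 1.31% and 1.52%. Over the alternatives the cortex counts ran from 4 to 17 for DD and from 5 to 17 for DC. Upper-quartile scaling gave 4 and 5 in cortex, or 2.88% and 3.60% against 2.59% and 5.74% of all genes. The cortex tests use the libraries that chose the transcripts. For a positive difference the 2 smallest unadjusted p belonged to Ihh and Mgat1, both for DD in hippocampus. Ihh is a hedgehog ligand best known from cartilage (log2 2.20) and Mgat1 an enzyme of N-glycan synthesis (1.49). For a negative difference they belonged to Slc23a2 (-2.34 for DC in hippocampus) and Camk2n1 (-2.02 for DC in cortex). The edgeR adjusted p-values of these 4 genes were, in that order, 0.9999, 0.9999, 0.801 and 0.950. Over the 18 contrasts, 9 of 2502 tests of these transcripts passed, each in a different gene, and 130 of the 139 passed in none.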

How the data were processed

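GeoMx whole-transcriptome libraries of captured mouse brain regions were used. The authors deposited 1 table of unscaled expected counts, as its values show. Counting software was not given in the sources used here, and submitters' processing notes name the mm10 build. Ratios to the negative probe were computed per library. Counts, rounded to whole numbers, were fitted per region over all 19962 genes and 6 groups with edgeR 4.0.16 in R 4.3.3 (TMM, quasi-likelihood F test, no low-count filter, Benjamini-Hochberg threshold 0.05); SE come from the F statistic. Log2 ratios in hippocampus were tested with limma 3.58.1. DESeq2 1.42.0 and other settings were alternatives. Scripts were tested on simulated data. The members and gene lists were chosen with earlier results of these data known. Named genes are all members called, the 2 smallest p in each direction where none was, and the 5 highest and lowest in hippocampus; others illustrate classes and were chosen after their values were seen. A few genes are not reported by name here, though the totals include them.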

Additional observations from a re-analysis of the deposited data

Results flagged for a closer look

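Within groups of 8 or 9 libraries, 8 of 42 sets of values examined held 1 library far from the others by Dixon's test. The test assumes normally distributed values, and these are skewed ratios and values near the floor. The 8 can therefore not be set against a chance rate. The negative probe was highest at 93.1 in APOE4 DC hippocampus (next 38.8), at 4.10 in APOE4 vehicle hippocampus (next 2.69) and at 1.86 in APOE3 DC hippocampus (next 1.35). The median ratio over the 139 transcripts was lowest at 1.31 in 1 APOE4 DD cortex library, below the next at 1.79.

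Hikeshi reached 16.4 in 1 APOE4 vehicle cortex library (next 9.33) and 1.83 in 1 APOE3 vehicle cortex library, the one with a count above 1. Rprd1b was 4.90 in 1 APOE4 DC hippocampus library (next 1.32). Chchd1 was 11.99 in 1 APOE4 vehicle hippocampus library (next 2.93).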

How the results depend on the processing

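The counts of called transcripts were small and moved with the processing. Taking values of 1 as 0 gave 5 calls for treatment in cortex, 32 for genotype in cortex, 0 for treatment in hippocampus, 54 for genotype in hippocampus, and 17 transcripts above and 60 below the negative probe. Calls over all genes were many in this setting. The 32 were all in vehicle cortex, where 6602 of 19962 genes were called. Of the 54, 43 were after DC, where 9978 genes were called. In both contrasts a larger share of all genes than of the 139 was called. The 5 in cortex were 4 after DD and 1 after DC in APOE3, where 2211 and 1195 genes were called. Upper-quartile scaling gave 2 for genotype in cortex, 1 for treatment in hippocampus and 2 for genotype in hippocampus; negative probe scaling gave 2 for genotype in cortex. DESeq2 gave 0 for genotype in cortex and 0 in hippocampus, and summed runs of wells 0 for genotype in cortex. The run of wells as a random block gave 0 for treatment and 4 for genotype in hippocampus. Of these 4, 3 were after DD and 1 after vehicle, where 881 and 527 of all genes were called. Without libraries with a negative probe of 5 or more there were 2 for genotype in cortex, 0 for treatment and 0 for genotype in hippocampus, and the log2 changes of Slc25a11 (0.14), H2bc11 (0.11), Rprd1b (0.32) and Slc23a2 (0.012) reversed, while Chchd1 (-1.98), 1520401A03Rik (-1.83), Smim22 (-1.65) and Rusc2 (-0.78) stayed below 0. Among transcripts in the window in both genotypes there were 0 for genotype in cortex, 2 for treatment in hippocampus and 43 above the negative probe. Leaving out 1 library at a time gave 0 to 0 calls for treatment and 1 to 2 for genotype in cortex, 3 to 17 for treatment and 0 to 1 for genotype in hippocampus, 0 to 0 interactions and 67 to 74 above the negative probe; Cenph ran from -0.11 to 2.00. For the contrasts, calls over all genes were not kept in the fits that left out 1 library, so those ranges have no background beside them. Except where the setting itself leaves out libraries or transcripts, the cause was not tested. The usual low-count filter tests 0 of the 139 and gave no value. No paired analysis was possible because the labels give no replicate numbers. Counts of 1 and 2 span the lower bound of the window in APOE3 libraries, so depth limits every level there.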
